A study of Homo sapiens with 6 samples.

Results

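Galectins were followed in Huh-7, a long-established line of human hepatocellular carcinoma cells, through the 9 galectin genes LGALS1, LGALS2, LGALS3, LGALS4, LGALS8, LGALS9, LGALS13, LGALS14 and LGALS16. They were chosen by gene symbol from the 20332 genes of the count table, and LGALS14 was singled out because its counts were known to fall in the comparison described here, so its change and those of its paralogs are given as a description without a test. All 9 genes had a row, 4 of them (LGALS1, LGALS3, LGALS8 and LGALS14) had enough counts to enter the fit, LGALS2 and LGALS4 had few counts, and LGALS9, LGALS13 and LGALS16 had 0 counts in all 6 samples. Samples carried either stable overexpression of RAC3, a small GTPase of the Rac family (3 samples), or the negative control of that line (3 samples). Lentivirus carrying RAC3 had been used to make the stable line, what the control line carried is not given in the sources used here, and no drug treatment is named for either group. The errors below measure the spread between samples of the same line, whether or not the 3 samples of a group were separate cultures. An effect of RAC3 cannot be told apart from another difference between the stable line and its control line.

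Galectins are lectins that bind β-galactosides on glycoproteins and glycolipids, inside and outside the cell, and they leave the cell without a signal peptide. Prototype galectins have a single carbohydrate-recognition domain, as in galectin-1 (LGALS1), galectin-2 (LGALS2) and the placental galectins of chromosome 19. Galectin-3 (LGALS3) is the chimera type, in which that domain is joined to a long flexible N-terminal part, and galectin-4 (LGALS4), galectin-8 (LGALS8) and galectin-9 (LGALS9) are tandem-repeat galectins with a pair of such domains in a single chain. LGALS13 (placental protein 13), LGALS14 and LGALS16 lie close together on chromosome 19 beside CLC, the Charcot-Leyden crystal protein of eosinophils, and are known mainly from the placenta.

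LGALS14 (ENSG00000006659) lies on the plus strand of chromosome 19 from 39704306 to 39709444 in GRCh38, as annotated by GENCODE release 29. LGALS13 lies upstream on the same strand from 39602501 to 39607476, and LGALS16 between them from 39655894 to 39660647. The coding transcripts of LGALS14 and LGALS13 were 84.4% identical over 596 aligned bases, and those of LGALS14 and LGALS16 were 84.3% identical over 619. The third of the 4 exons, which is coding throughout in these transcripts, is shown because its differences tell the reads of the 3 genes apart. Capitals mark, in LGALS13 and LGALS16, the bases that differ from LGALS14, and in LGALS14 the 30 bases that differ from both. Sequences are 5′ to 3′ on the plus strand of GRCh38, from the GENCODE transcripts, at chr19:39707178-39707388 for LGALS14, chr19:39605178-39605388 for LGALS13 and chr19:39658460-39658670 for LGALS16.
LGALS14: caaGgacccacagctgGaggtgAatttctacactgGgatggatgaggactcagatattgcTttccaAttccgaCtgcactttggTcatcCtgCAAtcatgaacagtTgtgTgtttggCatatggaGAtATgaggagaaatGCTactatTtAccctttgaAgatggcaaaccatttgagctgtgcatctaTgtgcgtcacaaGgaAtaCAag
LGALS13: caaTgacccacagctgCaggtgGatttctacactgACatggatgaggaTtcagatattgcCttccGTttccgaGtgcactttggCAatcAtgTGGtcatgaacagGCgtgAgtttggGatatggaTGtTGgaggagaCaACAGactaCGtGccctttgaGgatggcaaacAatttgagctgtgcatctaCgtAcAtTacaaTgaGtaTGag
LGALS16: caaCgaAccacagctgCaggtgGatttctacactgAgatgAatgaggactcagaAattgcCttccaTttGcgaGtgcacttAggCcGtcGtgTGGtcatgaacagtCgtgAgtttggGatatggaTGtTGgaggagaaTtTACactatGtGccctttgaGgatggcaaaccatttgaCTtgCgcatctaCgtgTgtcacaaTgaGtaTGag
Over these 211 bases LGALS13 differed from LGALS14 at 42 and LGALS16 at 41, and the longest run shared with LGALS14 was 18 bases for LGALS13 and 17 for LGALS16. Over all transcripts of LGALS14, 3 of 1121 stretches of 50 bases (0.27%) also occurred in another gene, which was LGALS13, and 0 of 1085 stretches of 100 bases did. LGALS13 itself had 0 counts.

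The bases just before the GENCODE start of LGALS14 are more alike than the third exon. They are shown because LGALS14 was counted in these cells while LGALS13 and LGALS16 were not. These are the bases from the start of the RefSeq promoter window (GRCh38.p14, 250 bases before the RefSeq start) up to the GENCODE start of LGALS14, at chr19:39704231-39704305. The aligned stretches are chr19:39602274-39602346 of LGALS13 and chr19:39655665-39655739 of LGALS16, and all lie on the plus strand. Both aligned stretches end before the GENCODE starts of LGALS13 (39602501) and LGALS16 (39655894). For LGALS14 the window runs on to 39704480, so most of it lies inside the GENCODE gene, which starts at 39704306. Capitals mark bases that differ from LGALS14.
LGALS14: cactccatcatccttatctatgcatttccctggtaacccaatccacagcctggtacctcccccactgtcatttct
LGALS13: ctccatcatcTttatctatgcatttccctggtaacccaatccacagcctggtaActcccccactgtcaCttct
LGALS16: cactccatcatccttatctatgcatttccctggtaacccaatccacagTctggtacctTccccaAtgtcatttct
LGALS13 differed at 3 of 73 aligned bases (95.9% identity) and LGALS16 at 3 of 75 (96.0%), and no base of LGALS14 differed from both. Over the whole window of 250 bases the identity to LGALS14 was 86.3% for LGALS13 and 87.1% for LGALS16, against 84.4% and 84.3% over the transcripts. The letters TTTAAA, which read the same on both strands, occur in the windows of LGALS14 and LGALS13 and not in that of LGALS16. They occur in 11.32% of the 35116 RefSeq windows of the same length, and in none of the stretches printed here. A match is a description of letters, not of a factor bound there.

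The libraries held from 13855762 to 18199888 counts. Levels are given as CPM, counts scaled by TMM to a common library size. Where a library has 0 counts of a gene, up to 3 counts remain possible by counting error alone, which is 0.167 to 0.215 CPM. RAC3 itself rose from 33.3 ± 2.16 to 232.6 ± 7.11 CPM (SD, n = 3 per group). Its counts were 497, 471 and 588 without and 4134, 3946 and 3178 with overexpression. For 2 samples titled RAC3, the replicates 2 and 3, the genotype reads RAC4 or RAC5, and both had the raised RAC3 counts. All 12 hepatocyte-lineage markers were detected and tested, with a summed level of 5881 to 5928 CPM in the negative controls and 5342 to 5859 CPM with RAC3. Of the 4 T and B cell markers, CD2 and MS4A1 had 0 counts and the sum was at most 0.716 CPM, endothelial markers summed to 2.53 to 3.64 CPM in all samples, and macrophage and granulocyte markers went from 43.2 to 50.7 CPM in the controls to 40.7 to 42.3 CPM with RAC3. The 3 cholangiocyte markers summed to 952 to 971 CPM in the controls and 774 to 830 CPM with RAC3, and the 4 fibroblast markers to 84.8 to 85.6 and 93.8 to 98.9 CPM. The hepatocyte-lineage, macrophage and granulocyte, cholangiocyte and fibroblast sums did not overlap between the groups, while the endothelial and T and B cell sums did. Of all genes in the fit, 42.5% did not overlap either, so no shift in cell types is read from these sums. What part these sums had in the galectin values was not tested.

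LGALS14 was lower with RAC3 overexpression in every sample. It had 1225, 1256 and 1332 counts in the controls, in the order of the replicate numbers, and 645, 550 and 470 in the overexpressing samples. Scaled to library size, these were 87.8, 83.6 and 74.3 CPM against 36.3, 33.4 and 33.3 CPM. The lowest negative control thus lay well above the highest RAC3 sample, and the RAC3 samples spread less than the controls. The means were 81.9 ± 6.91 and 34.3 ± 1.69 CPM (SD, n = 3 per group). In edgeR's quasi-likelihood fit this was a log2 fold change of -1.25 (SE 0.0703, 95% interval -1.40 to -1.10), or 2.38-fold lower. Ordered by log2 fold change from the most lowered gene, LGALS14 stood at place 52 of the 12941 genes in the fit, and at place 15 of the 11221 genes with a mean of at least 50 counts. In bulk RNA, fewer cells that make a transcript and less of it per cell cannot be told apart.

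LGALS1, the most widely expressed prototype galectin, had 1078, 1058 and 1299 counts without and 970, 1069 and 749 with RAC3 overexpression. The scaled levels were 77.2, 70.5 and 72.4 CPM against 54.6, 64.9 and 53.1 CPM, so that the groups did not overlap but the RAC3 sample 2 came near the controls. The log2 fold change was -0.35 (SE 0.0710, 95% interval -0.50 to -0.20). With the trend of each library with GC content removed, it was -0.21.

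LGALS3, the chimera galectin, moved the other way. Its counts were 96, 144 and 165 in the negative controls and 264, 243 and 183 with RAC3, the fewest among the galectins in the fit. The levels were 6.88, 9.59 and 9.20 CPM in the controls and 14.9, 14.8 and 13.0 CPM with RAC3, all 3 above the highest control. The log2 fold change was 0.73 (SE 0.133, 95% interval 0.45 to 1.00), or 1.65-fold higher.

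LGALS8, a tandem-repeat galectin that marks damaged endosomes and lysosomes from the cytosolic side, was slightly higher with RAC3. Its counts were 1626, 1851 and 2196 in the negative controls and 2634, 2249 and 2007 with RAC3. The levels were 116.5, 123.3 and 122.4 CPM against 148.2, 136.6 and 142.4 CPM, again without overlap. The log2 fold change was 0.24 (SE 0.0501, 95% interval 0.13 to 0.34), and 0.14 with the GC trend removed. LGALS8 shares 26.6% of its stretches of 50 bases with other genes, mainly HEATR1 and RNAs on the opposite strand, and whether the counting used strand is not given in the sources used here. HEATR1, a gene of ribosome biogenesis, did not pass the test (log2 fold change -0.01, SE 0.0543, adjusted p = 0.895, edgeR with Benjamini-Hochberg adjustment).

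**Figure D1:**
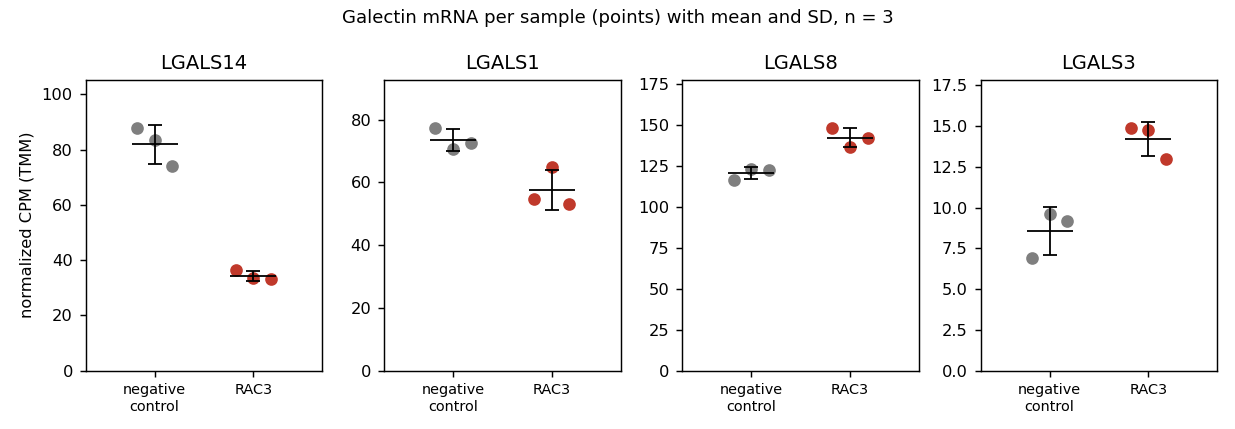
TMM-normalized CPM (vertical axes, each from 0) of LGALS14, LGALS1, LGALS8 and LGALS3 in the 3 negative control samples (grey) and the 3 RAC3 samples (red). Points are samples, and bars give the mean and SD; no group overlaps the other for any of the 4 genes, and LGALS14 falls from 81.9 to 34.3 CPM.

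The remaining members were scarcely counted. LGALS4, known from the epithelium of the gut, had 12, 6 and 4 counts without and 14, 8 and 6 with RAC3 overexpression, or 0.494 ± 0.329 and 0.566 ± 0.194 CPM (SD, n = 3 per group), and the groups overlapped. LGALS2 had 1, 3 and 1 counts in the controls and 0, 1 and 2 with RAC3, at or below the limit of 3 counts in each sample. LGALS9, LGALS13 and LGALS16 had 0 counts in each sample, which at this depth does not exclude levels up to the limit given above. Neither LGALS2 nor LGALS4 entered the fit, and no fold change is given for these 5 genes.

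Among the 4 members in the fit, LGALS14 (lower) and LGALS3 (higher) passed the thresholds of the study, a fold change above 1.5 in either direction with an unadjusted p below 0.05, which 605 of 12941 genes (4.68%) passed, 218 of them higher (1.68%) and 387 lower (2.99%). The split between directions depends on the scaling, and without TMM factors it was 296 higher and 315 lower. All 4 had an adjusted p below 0.05, as did 28.5% of all genes (1717 higher and 1974 lower, or 2613 higher and 1381 lower without TMM factors), and all 4 had groups that did not overlap in CPM, as did 42.5% of all genes. Because the genes were chosen with this comparison known and these 4 had to be well counted, nothing is read from these counts. In the 14 refits with other settings, the log2 fold change ran from -1.32 to -1.19 for LGALS14, from -0.44 to -0.21 for LGALS1, from 0.14 to 0.29 for LGALS8 and from 0.60 to 0.86 for LGALS3, given as a description.

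LGALS14 was lowered more than LGALS1, while LGALS8 and LGALS3 were higher. Its log2 fold change was 0.90 lower than that of LGALS1 (difference -0.90, SE 0.0999), and the difference was -1.49 (SE 0.0864) from LGALS8 and -1.98 (SE 0.150) from LGALS3. Since LGALS14 was chosen for its fall in these samples, these differences are descriptions and no test of it against its paralogs.

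**Figure D2:**
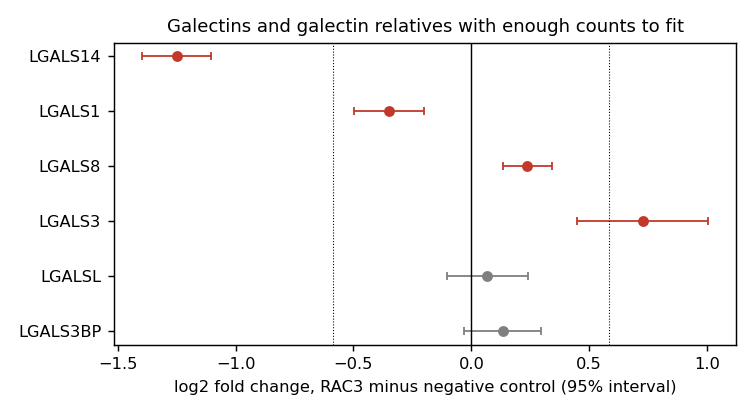
Log2 fold change, RAC3 overexpression minus negative control (horizontal axis), with the 95% interval of the fit for the 4 members of the galectin list that entered it (red) and for LGALSL and LGALS3BP (grey). Dotted lines mark a fold change of 1.5; LGALS14 lies at -1.25, LGALS1 at -0.35, LGALS8 at 0.24 and LGALS3 at 0.73.

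Levels of different genes were compared per length, in the FPKM values that the authors made, and the order and ratios of genes rest on the lengths behind these values. LGALS14 had 140.2, 135.7 and 120.5 FPKM in the negative controls and 61.6, 56.1 and 56.1 with RAC3. LGALS1 had 141.9, 130.9 and 135.1 FPKM in the controls and 105.8, 124.4 and 102.2 with RAC3. In the negative controls these were the 2 highest galectins in FPKM and their samples overlapped, so that the order between them is not set. LGALS8 followed at 48.7 ± 2.54 FPKM, then LGALS3 at 8.76 ± 1.56 (SD, n = 3), with no overlap between neighbours, and LGALS4 and LGALS2 lay at 0.471 and 0.180 FPKM on average, with overlapping samples.

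With RAC3 the order in FPKM changed. LGALS1 was highest at 110.8 ± 11.9 FPKM, and LGALS8 (59.8 ± 2.11) and LGALS14 (57.9 ± 3.21) followed with overlapping samples, above LGALS3 at 15.1 ± 1.15 (SD, n = 3). The ratio of LGALS14 to LGALS1 was 0.988, 1.04 and 0.892 in the negative controls and 0.583, 0.451 and 0.548 with RAC3. The ratio of LGALS14 to LGALS8 went from 3.05, 2.66 and 2.45 to 0.996, 0.937 and 0.972. Neither ratio overlapped between the groups. With CPM divided by the median length of a gene's GENCODE transcripts in place of FPKM, the order differed. The negative controls then had 142.2 ± 6.75 CPM per kb for LGALS1, 138.1 ± 4.23 for LGALS8 and 105.9 ± 8.94 for LGALS14, and the RAC3 samples 111.5 ± 12.5, 162.8 ± 6.67 and 44.4 ± 2.19 (SD, n = 3 per group). LGALS14 was thus below LGALS8 in both groups on that scale, and the mean ratio of LGALS14 to LGALS8 went from 0.769 to 0.273. In the negative control replicate 1, the LGALS8 length behind the FPKM was about 2461 bases, against a median transcript of 874.5 bases. For LGALS14 it was about 608 against 773.

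Summed over the 9 genes, galectin FPKM was 326.2 ± 10.8 in the negative controls and 244.4 ± 13.3 with RAC3 (SD, n = 3 per group), a difference of -81.8. LGALS14 accounted for -74.2 of this difference and LGALS1 for -25.1, while LGALS8 added 11.1 and LGALS3 added 6.35. The share of LGALS14 in the sum went from 40.5% ± 1.88 to 23.8% ± 1.69, that of LGALS8 from 15.0% ± 1.09 to 24.5% ± 1.03, that of LGALS3 from 2.69% ± 0.536 to 6.18% ± 0.253, and that of LGALS1 from 41.7% ± 1.60 to 45.3% ± 2.84. FPKM is relative to the total of each library, these sums and shares rest on the lengths behind the FPKM, and they concern mRNA, not protein.

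**Figure D3:**
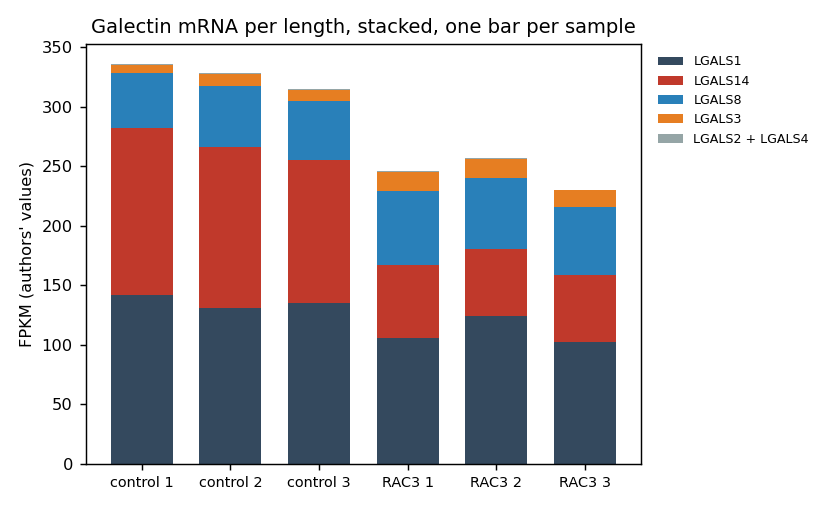
FPKM of the galectins (vertical axis) stacked for each of the 3 negative control samples and 3 RAC3 samples. The sum is 314.6 to 336.0 in the controls and 230.4 to 256.8 with RAC3, and the LGALS14 part (red) shrinks most; LGALS2 and LGALS4 together are too small to see.

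Other genes of the galectin family gave little signal in these cells. CLC, on the minus strand next to LGALS14, had 2, 4 and 10 counts without and 8, 11 and 9 with RAC3 overexpression, too few for the fit. LGALS7B had 1 count in each group, and LGALS7, LGALS9B, LGALS9C and LGALS12 had 0 counts. The galectin-like gene LGALSL and LGALS3BP, a secreted glycoprotein bound by galectin-3, were the 2 relatives tested, and neither passed. LGALSL had a log2 fold change of 0.07 (SE 0.0821, adjusted p = 0.584) and LGALS3BP of 0.13 (SE 0.0782, adjusted p = 0.214) by edgeR's quasi-likelihood test. At an unadjusted p below 0.05 the count was 0 as well, as it was for adjusted p values by DESeq2 and by limma-voom, and with the GC trend removed 1 of the 2 passed.

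The genes around LGALS14 on chromosome 19 changed less than LGALS14 itself, which was chosen for its fall in these samples, so this is a description. Of the 10 genes of the table on each side, 18 are not members of the galectin list, and 15 of these had enough counts to be tested. None of the 15 passed the study's thresholds by edgeR, DESeq2 or limma-voom, which 4.68% of all genes passed in the edgeR fit, so that a count of 0 among 15 genes is near the background. At an unadjusted p below 0.05 the count was 6, against 39.2% of all genes, and at an adjusted p below 0.05 it was 5 (33.3%, against 28.5% of all genes). With the GC trend removed, 1 passed the thresholds. The 4 lower genes were PLEKHG2 (log2 fold change -0.45), RPS16, a ribosomal protein (-0.23), FBL, the nucleolar methyltransferase fibrillarin (-0.30), and MAP3K10, a mitogen-activated kinase kinase kinase (-0.35). The single higher gene was PSMC4, a proteasome subunit (0.19). Log2 fold changes of the 15 ran from -0.45 to 0.52, with a median of 0.00, the same as over all genes to 2 decimals, against -1.25 for LGALS14.

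Nearest to LGALS14, the table was almost silent. LGALS16 at -48.4 kb and LGALS13 at -101.8 kb, both upstream, had 0 counts, as had LEUTX, a homeobox gene of the early embryo, 72.3 kb downstream. CLC lies 26.9 kb downstream. The nearest tested gene downstream was DYRK1B, a protein kinase, at 121.0 kb (log2 fold change -0.17, SE 0.0990, adjusted p = 0.203), followed by FBL, named above as lower, at 130.2 kb (-0.30, SE 0.0462, adjusted p = 7.7e-05). The nearest tested gene upstream was EID2, a transcriptional inhibitor, at -165.6 kb (-0.02, SE 0.0911, adjusted p = 0.900, all by edgeR's quasi-likelihood test). The other tested neighbours that did not pass were SUPT5H (0.03), TIMM50 (-0.09), DLL3 (0.52), EID2B (0.40), FCGBP (0.00), ZNF546 (0.44), ZNF780B (0.23) and ZNF780A (0.28), given as log2 fold changes.

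**Figure D4:**
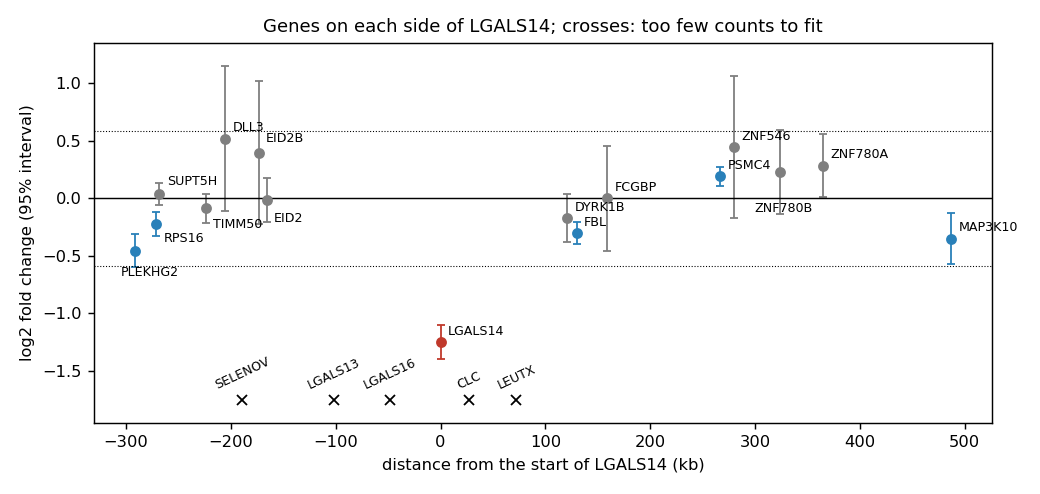
Log2 fold change with its 95% interval (vertical axis) against the distance from the start of LGALS14 in kb (horizontal axis) for the tested genes among the 10 on each side. LGALS14 (red) lies at -1.25, the 5 neighbours with an adjusted p below 0.05 are blue, the others are grey, and crosses at the bottom mark genes with too few counts, LGALS13, LGALS16 and CLC among them; dotted lines mark a fold change of 1.5.

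Genes whose profile over the 6 samples came closest to that of LGALS14 were looked for among the 11220 other genes with a mean of at least 50 counts, by the root mean square difference of log2 CPM after each gene was centred on its own mean. BGN, the proteoglycan biglycan, was nearest at 0.0596. It had 7.74, 7.33 and 6.86 CPM in the negative controls and 3.49, 3.16 and 3.05 CPM with RAC3, the same order of samples as LGALS14. The next were UNC5B, a netrin receptor (0.114), MDFI, an inhibitor of MyoD family factors (0.121), S100A14, a calcium-binding protein (0.133), and NFATC4, a calcium-regulated transcription factor (0.134). The SE of the log2 fold change was 0.176 for BGN and 0.232 for MDFI, against 0.0703 for LGALS14. The order of samples within a group is therefore not read as shared. The likeness rests on 6 samples and mainly on the step between the groups.

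LGALS14 is known as a trophoblast gene, and other trophoblast genes were therefore counted. Of 40 listed, 13 had 0 counts in all samples, among them CGB3, CGB5 and CGB8 (chorionic gonadotropin subunits), CSH1 and CSH2 (placental lactogens), ERVW-1 (syncytin-1), HLA-G and ELF5. Another 17 had too few counts, such as GCM1, a transcription factor of the syncytiotrophoblast, with 7 counts over the 6 samples. Of the 10 tested, GATA2, a transcription factor, alone had an adjusted p below 0.05, with a log2 fold change of -0.29 (SE 0.0908, adjusted p = 0.0207 by edgeR's quasi-likelihood test), which is 10% of those tested against 28.5% of all genes. Its call was lost without the negative control replicate 2 (adjusted p = 0.111), without the RAC3 overexpression replicate 1 (adjusted p = 0.111), without TMM factors (-0.24, adjusted p = 0.0536) and with the GC trend removed (-0.08, adjusted p = 0.537), all from edgeR. GATA3 passed the study's thresholds at 2.37 ± 0.513 against 1.41 ± 0.170 CPM (SD, n = 3 per group; log2 fold change -0.74, adjusted p = 0.0709 from edgeR), though not without the negative control replicate 1 or 3, without the RAC3 overexpression replicate 1, or with the GC trend removed. Not all trophoblast genes were scarce, since VGLL3, a transcriptional cofactor, had 4045 ± 163.7 CPM without and 4360 ± 254.0 CPM with RAC3 overexpression (SD, n = 3 per group). The change was 0.11 on the log2 scale (SE 0.0415, adjusted p = 0.0575 from edgeR, and 0.00529 without TMM factors). PAPPA, a secreted protease of pregnancy, had 27.8 ± 0.268 and 26.9 ± 2.10 CPM (SD, n = 3 per group), with a log2 fold change of -0.04 (SE 0.0803, adjusted p = 0.722 from edgeR). The median log2 fold change of the 10 genes was -0.28, against 0.00 over all genes.

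Galectin ligands are built by glycosyltransferases, which make the branched N-glycans, core O-glycans and poly-N-acetyllactosamine that galectins bind, and by sialyltransferases, which cap galactose and can hide it. Of 36 such genes, 35 were tested, 11 had an adjusted p below 0.05 (31.4%, against 28.5% of all genes), 4 higher and 7 lower (8 higher and 5 lower without TMM factors), and the median log2 fold change was -0.06, against 0.00 over all genes. FUT8, which adds the core fucose of N-glycans, went from 3.23 ± 0.416 to 5.50 ± 0.404 CPM, and GCNT3, a branching enzyme of O-glycans, from 7.43 ± 1.42 to 11.6 ± 0.706 CPM (SD, n = 3 per group). Their log2 fold changes were 0.76 (adjusted p = 0.00607) and 0.65 (adjusted p = 0.00253) from edgeR, both past the study's thresholds, although GCNT3 fell short of the fold threshold without the negative control replicate 3 (0.48). B3GNT5, which starts lacto-series glycolipids, rose by 0.48 and C1GALT1C1, the chaperone of core 1 O-glycan synthesis, by 0.23 on the log2 scale. Among the lowest p values on the lower side were B4GALT2, a galactosyltransferase (-0.32), MGAT5, which makes the branch that carries most galectin-3 ligands (-0.23), GNE, which starts sialic acid synthesis (-0.32), and the sialyltransferases ST3GAL2 (-0.25) and ST6GAL1 (-0.23). MGAT3, which adds the bisecting residue, passed the study's thresholds at -0.92 with an adjusted p of 0.09995 from edgeR. It had 16, 17 and 4 counts with RAC3, and without the RAC3 overexpression replicate 3 its log2 fold change was -0.58, short of both thresholds. It also failed the thresholds with DESeq2, without the negative control replicate 2 or 3 and with the GC trend removed. With at least 10 counts required in every sample it did not enter the fit.

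**Figure D5:**
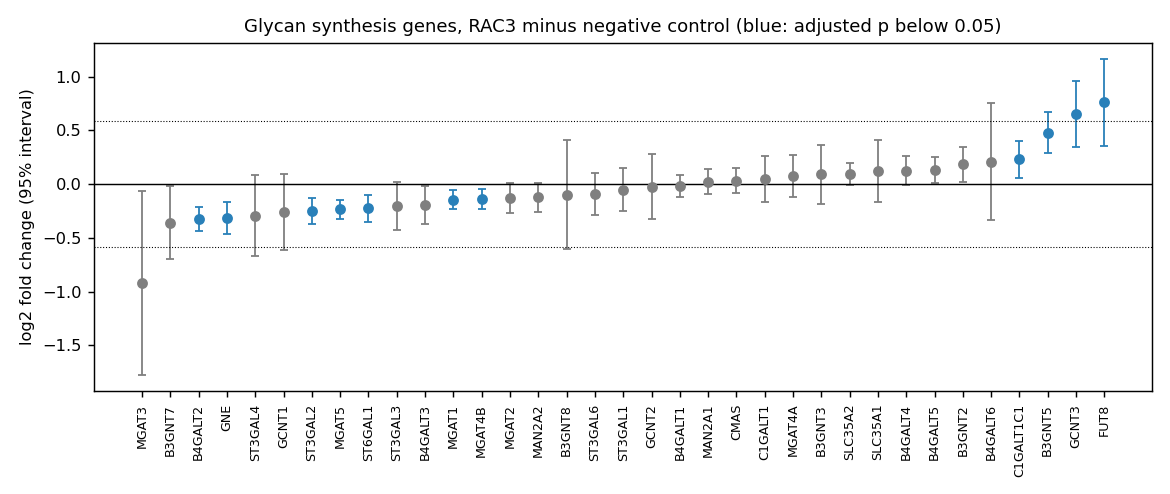
Log2 fold change, RAC3 overexpression minus negative control, with its 95% interval (vertical axis) for the 35 tested genes of glycan synthesis, ordered by value (horizontal axis). The 11 genes with an adjusted p below 0.05 are blue, of which 4 lie above 0 and 7 below, and dotted lines mark a fold change of 1.5.

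Among 32 glycoproteins known to be bound by galectins, 27 were tested and 9 had an adjusted p below 0.05 (33.3%, against 28.5% of all genes), 4 higher and 5 lower (6 higher and 5 lower without TMM factors). The lower ones were SLC2A1, a glucose transporter, ITGA5, an integrin subunit (-0.56), FN1, fibronectin (-0.43), MCAM, an adhesion molecule (-0.37), and LAMA5, a laminin chain (-0.20), given as log2 fold changes. The higher ones were CD47, a cell surface protein that restrains phagocytosis (0.48), TGFBR2, a receptor of transforming growth factor beta (0.30), ITGAV, an integrin subunit (0.24), and VTN, vitronectin (0.19). SLC2A1 alone passed the study's thresholds in the fit to all samples, at -1.31 (SE 0.185, adjusted p = 3.8e-05 from edgeR). ITGA5 passed them too without the negative control replicate 2 or 3 or the RAC3 overexpression replicate 2. The SLC2A1 controls were uneven at 165.0, 92.5 and 72.2 CPM. Without the negative control replicate 1 the SLC2A1 log2 fold change was -0.90 (adjusted p = 1.4e-07 from edgeR). The median over the 27 genes was 0.01, against 0.00 over all genes.

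LGALS3 and LGALS8 gather on damaged lysosomes, where galectin-8 recruits the autophagy receptor CALCOCO2 and galectin-3 the ubiquitin ligase TRIM16. Of 23 genes of this response, 22 were tested and 8 had an adjusted p below 0.05 (36.4%, against 28.5% of all genes), 4 higher and 4 lower, with a median of 0.01. CALCOCO2 was lower by a small step (-0.17, SE 0.0599, adjusted p = 0.0399 from edgeR), opposite in sign to LGALS8. TRIM16 was lower (-0.58, SE 0.152, adjusted p = 0.00759), opposite in sign to LGALS3, and its levels were 16.5, 13.3 and 14.2 CPM in the negative controls and 7.09, 10.7 and 11.8 CPM with RAC3. Without the RAC3 overexpression replicate 1 its log2 fold change was -0.38 (adjusted p = 0.0519 from edgeR). TFEB, the transcription factor of lysosome biogenesis, was lower at -0.81 (SE 0.183, adjusted p = 0.00277) and alone passed the study's thresholds in the fit to all samples. TRIM16 passed them too with limma-voom and when either the negative control replicate 2 or 3 or the RAC3 overexpression replicate 2 or 3 was left out. The ubiquitin ligase subunit FBXO27 was also lower (-0.44), and the higher genes were TAX1BP1, an autophagy receptor (0.27), MAP3K7 (0.21), PRKAA1, a subunit of the AMP-activated kinase (0.19), and BECN1 (0.19). Without the negative control replicate 1, and likewise without the RAC3 overexpression replicate 1, 4 of the genes had an adjusted p below 0.05, while the share over all genes went from 28.5% to 21.8% and 20.2%.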

How the data were processed

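Poly(A) RNA of 6 Huh-7 samples was sequenced on an Illumina NovaSeq instrument. The submitters' processing notes name Bowtie2 2.2.8, HISAT2, StringTie 1.3.1 and DESeq2. The genome build, annotation, counting tool and its use of strand are not given in the sources used here. The authors deposited raw counts per gene and sample and FPKM values per sample together with mean FPKM values of each group, which were not used. The lengths behind the FPKM values were about 604 to 608 bases for LGALS14, but they were not fixed for every gene. MGAT3 had 18 counts and 0.232 FPKM in the negative control replicate 1. It had 16 counts and 0.676 FPKM in the RAC3 overexpression replicate 1. Samples were grouped by their titles.

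The tests were run with edgeR 4.0.16 under R 4.3.3 (filterByExpr, TMM, quasi-likelihood F test, two-sided, Benjamini-Hochberg adjustment over the 12941 genes tested, no covariate). The steps were tested on simulated data. Of 20332 identifiers, 20113 are in GENCODE release 29, and 617 rows lack a symbol. All 9 galectin genes have a GENCODE entry, and LGALS13, LGALS14 and LGALS16 a RefSeq promoter window. Alternatives were library size scaling, DESeq2's size factors, DESeq2 1.42.0, limma-voom (limma 3.58.1), other filters, pseudocounts and lengths, a replicate term, leaving out each sample, and, chosen after seeing the data, removal of each library's GC trend (lowess, span 0.3).

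The members and gene lists were chosen with earlier results of these data known. The text names all members, RAC3, galectin relatives, neighbours of LGALS14, the 5 nearest profiles, and in each list the genes with an adjusted p below 0.05 (at most 5 per direction) or past the study's thresholds. Trophoblast genes at or near 0, VGLL3, PAPPA and HEATR1 were named after their values were seen. Replicates differed beyond counting noise (chi-square per degree of freedom 2.47 to 5.20). This cannot tell separate cultures from separate libraries of the same culture. Each was counted as a sample. No exact permutation test of 3 against 3 samples can give a two-sided p below 0.1.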

Additional observations from a re-analysis of the deposited data

How the results depend on the processing

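The log2 fold change of LGALS14 lay between -1.32 and -1.19 under all settings tried. The correlations of deviations between samples of the same replicate number were -0.13, -0.062 and -0.015. Between unlike numbers they ran from -0.044 to 0.102. These values show no pairing by number but cannot exclude that samples were handled in pairs. With a replicate block, 615 genes passed the study's thresholds and 3261 had an adjusted p below 0.05, the log2 fold change of LGALS14 was -1.25, and the lists had 9 (glycan synthesis), 9 (glycoproteins), 7 (damaged lysosomes), 1 (trophoblast), 5 (neighbours) and 0 (other galectins) genes called, within 1.5 times the counts without it. Without TMM factors the median of all genes moved to 0.06, and the genes called for glycan synthesis were 8 higher and 5 lower. With the GC trend removed, 1 of the other galectin genes was called and 0 trophoblast genes. The trophoblast count of 1 became 3 with limma-voom, 3 without a filter, 2 with at least 10 counts in every sample, and 0 to 3 when 1 sample was left out. Leaving out 1 sample gave 4 to 7 genes (8 with all) for damaged lysosomes. The ratio of LGALS14 to LGALS1 in the negative controls was 0.972 in FPKM and 0.745 as CPM per median transcript length, and that of LGALS14 to LGALS8 was 2.72 and 0.769, an alternative added after seeing the data. These ratios differ by the lengths used, and why the other values moved was not tested. Of 260 recomputed values, 226 stayed within the limits set for them. LGALS2, LGALS4, LGALS9, LGALS13 and LGALS16 are limited by depth.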
